A study of Mus musculus with 8 samples.

Results

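The ligands and receptors of the IL-1 and IL-36 systems, 10 of the 22740 genes in the deposited table, were followed in mouse skin. They were chosen by name and by role, and all 10 passed the filter on low counts that left 15163 genes to test. The study asked how butyrate, a short-chain fatty acid made by gut bacteria from fibre, acts on skin exposed to allergen. Skin RNA of 8 female BALB/c mice on a low-fibre diet was sequenced, 1 library from each, and the 4 groups held 2 mice apiece. Baseline CTL mice drank water and received no allergen. Baseline butyrate mice drank 400 mM sodium butyrate for 2 weeks and received no allergen. Lesional CTL and lesional butyrate mice had the same drinks and were then given house dust mite extract (HDM) on shaved dorsal skin under a patch, 15 µg in each of 4 exposures over 2 weeks, and butyrate went on throughout. All mice are labelled as 6 to 8 weeks old. Baseline skin was taken when butyrate treatment ended, and the first number of the labels is 5 for the baseline mice and 6 for the lesional mice, so HDM, the patch, the time of collection and the set of mice cannot be told apart.

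IL-1 alpha and IL-1 beta, encoded by Il1a and Il1b, signal through the receptor Il1r1, which recruits the shared co-receptor Il1rap and the adaptor Myd88. The antagonist Il1rn occupies Il1r1 without signalling, and the decoy receptor Il1r2 binds IL-1 without passing the signal on. IL-36 alpha, beta and gamma, encoded by Il1f6, Il1f8 and Il1f9, act through Il1rl2 with the same co-receptor and are opposed by the IL-36 receptor antagonist Il1f5. Keratinocytes are a main source of the IL-36 agonists and of IL-1 alpha, while IL-1 beta is made chiefly by myeloid cells as a precursor that has to be cleaved. Both systems are known in skin for neutrophil recruitment and for the keratinocyte response to injury. The assay measured transcripts only, so cleavage and release of the proteins were not seen.

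Libraries held between 18004136 and 21085544 counts, and levels are given as CPM, counts scaled to a common library total by TMM. Markers of basal keratinocytes summed to between 8081 and 13551 CPM in the 8 mice, with all 7 listed genes detected. Baseline butyrate replicate 3 stood apart from the other 7 mice. Its markers of growing hair follicles summed to 16849 CPM, against between 6.60 and 12.6 CPM elsewhere, and the baseline butyrate pair lay more than 2-fold apart in 26.5% of 14198 genes, against 1.43% to 4.81% in the other pairs. The pair was more than 2-fold apart in 7 of the 10 members as well, so the main values of the members that use this mouse are also given without it.

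The members lie in 3 places of the genome (GRCm38, annotation of GENCODE vM21). Il1f8, Il1f9, Il1f6, Il1f5 and Il1rn follow each other on the plus strand of chromosome 2 within 198.3 kb, and Il1a and Il1b lie 105 Mb further along that chromosome, on the minus strand and 54.6 kb apart. The receptors Il1r2, Il1r1 and Il1rl2 sit within 293.5 kb on the plus strand of chromosome 1. The 250 bases before the start site were taken from RefSeq (GRCm38.p6), which matched 9 of the 10 members. They are shown for Il1a and Il1b, neighbours with unlike levels after HDM, and for Il1f8 and Il1f9, IL-36 agonists next to each other. Capitals mark TATAAA, the TATA box, and TGANTCA, the AP-1 type motif, searched on both strands. Each sequence is written 5′ to 3′ on the strand of its gene, at chr2:129309973-129310222 (minus) for Il1a, chr2:129371140-129371389 (minus) for Il1b, chr2:24152922-24153171 (plus) for Il1f8 and chr2:24186226-24186475 (plus) for Il1f9.
Il1a: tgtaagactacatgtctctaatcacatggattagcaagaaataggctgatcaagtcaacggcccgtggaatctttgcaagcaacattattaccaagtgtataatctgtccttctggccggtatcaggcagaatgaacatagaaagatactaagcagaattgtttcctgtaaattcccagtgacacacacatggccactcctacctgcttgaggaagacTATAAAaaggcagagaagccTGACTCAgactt
Il1b: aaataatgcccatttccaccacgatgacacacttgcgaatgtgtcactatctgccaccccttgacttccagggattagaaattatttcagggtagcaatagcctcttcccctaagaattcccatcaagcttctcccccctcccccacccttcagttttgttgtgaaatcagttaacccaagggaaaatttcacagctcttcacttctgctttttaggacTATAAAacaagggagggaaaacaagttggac
Il1f8: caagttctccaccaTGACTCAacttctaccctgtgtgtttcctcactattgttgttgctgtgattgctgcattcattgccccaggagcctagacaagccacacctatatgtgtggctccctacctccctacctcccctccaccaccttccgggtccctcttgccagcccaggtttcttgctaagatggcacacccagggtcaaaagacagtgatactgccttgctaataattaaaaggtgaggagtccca
Il1f9: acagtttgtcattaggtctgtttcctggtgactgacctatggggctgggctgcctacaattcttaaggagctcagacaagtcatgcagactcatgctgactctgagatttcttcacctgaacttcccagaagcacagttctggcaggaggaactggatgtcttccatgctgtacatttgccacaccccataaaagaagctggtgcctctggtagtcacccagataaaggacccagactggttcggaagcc
TATAAA began 32 bases before the start site in Il1a and 31 bases before it in Il1b. TGANTCA was matched as TGACTCA, 12 bases before the start site in Il1a and 236 bases before it in Il1f8, and no match was in the Il1f9 window. Of the members not shown, Il1rn held TGANTCA. Il1rl2 held TATAAA only on the strand opposite to the gene, read as TTTATA 166 bases before its start site. Among all 32851 promoter windows of the same length, 12.4% held TATAAA, 6.75% held TGANTCA and 7.25% held the NF-kB consensus. The NF-kB consensus was found for 1 member, Il1r1, 232 bases before its alternative start site, and for neither IL-1 agonist. A match is a description of the letters and was not tested as a binding site.

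In CTL mice, 3 of the 10 members rose with HDM, the agonists Il1b and Il1f6 and the receptor Il1r1, and no member fell. The rule for a call was an FDR below 0.1 over all genes and a fold-change above 2 by edgeR's quasi-likelihood test, which 3.58% of the 15163 genes met in this comparison, 2.37% as higher and 1.21% as lower. The lesional CTL mice were both above the baseline CTL mice in 8 members and both below in 1, Il1r2, where 36.7% and 38.5% of all genes did so. The median log2 fold change of the members was 0.84, against -0.02 over all genes. DESeq2, which called 1093 of the 15163 genes here, called 4 members, Il1b, Il1r1, Il1f6 and Il1f8. By limma-voom 578 genes were called, with the same 3 members as by edgeR. Leaving out any of the 4 CTL mice gave log2 fold changes of Il1b between 4.88 and 5.71. The calls of the members were lost there, while calls over all genes fell as well. In those fits a group is represented by 1 mouse, which is assumed to vary like the others. Without lesional butyrate replicate 3 or replicate 4, calls over all genes fell too, and of the members Il1b alone stayed called. Without baseline butyrate replicate 3, where 12.5% of 15349 genes were called, 5 members were called, Il1f8 and Il1f9 being added, and without baseline butyrate replicate 1, where 12.3% of 15677 genes were called, they were the same 5.

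In butyrate-treated mice, no member passed the test between lesional and baseline skin, where 0.35% of genes did, 0.277% as higher and 0.0725% as lower. By edgeR 7 members had an unadjusted p under 0.05, all of them higher, and 1993 of all genes did. DESeq2, which called 4.6% of all genes here, called 5 members, Il1b, Il1f5, Il1f6, Il1f8 and Il1f9, and limma-voom called none. The lesional butyrate mice were both above the baseline butyrate mice in 8 members and below in none, where 15.7% and 16.9% of all genes did so. Without baseline butyrate replicate 3, Il1b, Il1f6, Il1f8 and Il1f9 were called, when 5.94% of 15349 genes were. Without baseline butyrate replicate 1, so that the hair follicle mouse alone stood for the group, 19.1% of 15677 genes and 7 members were called, Il1a, Il1rn and Il1f5 in addition to those 4.

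Between lesional butyrate and lesional CTL skin, 0 of 15163 genes and so none of the members passed edgeR's test, a share of 0%, while 734 genes, Il1b and Il1r1 among them, had an unadjusted p under 0.05. The members did not move one way: 5 had a higher and 5 a lower fitted level, with a median log2 fold change of 0.03 against -0.01 over all genes. The lesional butyrate mice were both below the lesional CTL mice in Il1b, Il1r1, Il1r2 and Il1rl2 and both above in Il1f5, where 22.5% and 22.4% of all genes did so. DESeq2 called 124 genes, 0.818% of all, with Il1b as the only member, and limma-voom called 1 gene, not a member. A fit of the 4 lesional mice alone called 0.168% of 14889 genes, with Il1b again the only member. So did the fits without baseline butyrate replicate 3, where 1.22% of 15349 genes were called, and without baseline butyrate replicate 1, where 1.22% of 15677 were.

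In baseline skin, where 0% of genes passed the test and 529 had an unadjusted p under 0.05, no member passed it or had an unadjusted p under 0.05. DESeq2 called 44 genes and limma-voom 0, none of them members. Fitted levels were lower with butyrate in 9 of 10 members, and both butyrate mice were below both CTL mice in Il1r2, Il1f6, Il1f8 and Il1f9, where 15.9% of all genes were lower and 13.8% higher in this way. The size of these differences depended on baseline butyrate replicate 3. Without that mouse Il1r2, Il1f6, Il1f8 and Il1f9 stayed lower, with log2 fold changes of -0.27, -0.45, -0.24 and -0.22. Il1b and Il1f5 then turned higher, at 0.38 and 0.07. Without baseline butyrate replicate 3 no member was called and the members' log2 fold changes lay between -0.45 and 0.38, and without baseline butyrate replicate 1, which left the hair follicle mouse alone, 24.1% of 15677 genes and 6 members were called and the values reached -2.48. The butyrate effect in lesional skin minus that in baseline skin passed the test in no gene, 0% of 15163, by edgeR or limma-voom, with 703 genes at an unadjusted p under 0.05. DESeq2 called 32 genes for it and no member.

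**Figure D1:**
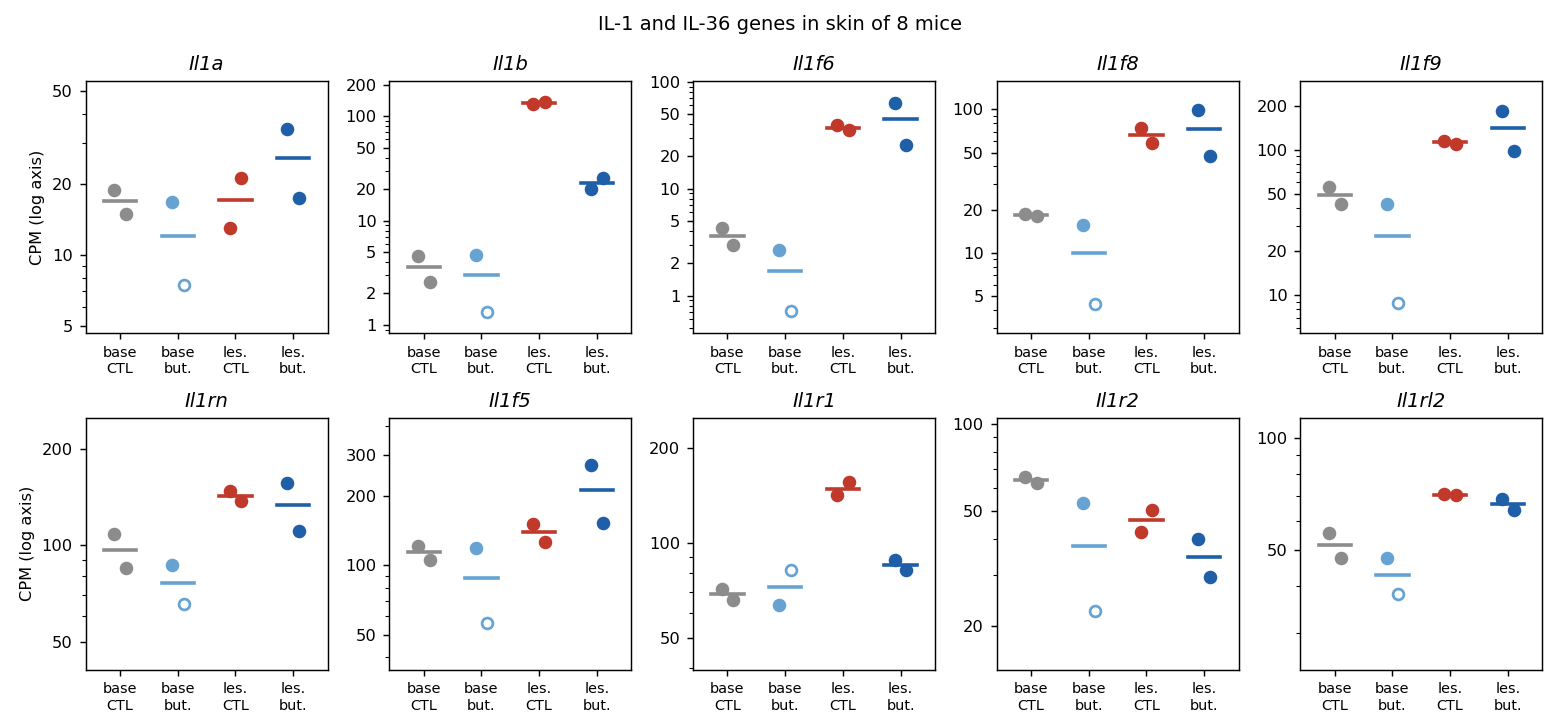
Level of each member in CPM (log axis) in every mouse, with 2 mice per group as points and the group mean as a bar; base and les. stand for baseline and lesional skin, but. for butyrate, and the open point is baseline butyrate replicate 3. Il1b lies at 132 and 136 CPM in lesional CTL skin and at 19.9 and 25.5 CPM in lesional butyrate skin, while Il1f6, Il1f8 and Il1f9 overlap between these groups.

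Il1b, the IL-1 beta gene (ENSMUSG00000027398, chromosome 2, 129364570 to 129371139), had the widest range of the members. It was at 4.56 and 2.55 CPM in baseline CTL skin and at 132 and 136 CPM in lesional CTL skin. It rose 37.6-fold with HDM in CTL mice (log2 fold change 5.23, standard error 0.61, edgeR FDR 0.0294). In butyrate-treated mice it was at 4.62 and 1.33 CPM in baseline skin and at 19.9 and 25.5 CPM in lesional skin. Every lesional mouse was thus above every baseline mouse, and the lesional groups did not overlap. With HDM in butyrate-treated mice the log2 fold change was 2.94 (standard error 0.56, FDR 0.165 by edgeR), or 2.30 (FDR 0.0342) without baseline butyrate replicate 3.

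Butyrate-treated lesional skin held 5.90-fold less Il1b than lesional CTL skin (log2 fold change -2.56, standard error 0.53, 95% interval -3.84 to -1.29, edgeR FDR 0.737). In the fit of the 4 lesional mice the same value had an FDR of 0.0613, without baseline butyrate replicate 3 one of 0.0266 and without replicate 1 one of 0.0250, and DESeq2 gave 0.00106 where limma-voom gave 0.309. The exact permutation test of a comparison of 2 mice with 2 cannot go below a two-sided p of 0.333. Leaving out any of the other 6 mice, the CTL mice and the lesional butyrate mice, gave an FDR of 1.00. Over all 8 such fits the log2 fold change lay between -2.75 and -2.39. In baseline skin the difference was -0.27 (standard error 0.56), and it turned to 0.38 without baseline butyrate replicate 3. The butyrate effects in lesional and baseline skin differed by -2.29 (standard error 0.76, unadjusted p = 0.0223 and FDR 0.840 by edgeR), or by -2.94 (FDR 0.331) without baseline butyrate replicate 3.

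Il1a, the IL-1 alpha gene 54.6 kb away on the same strand (ENSMUSG00000027399, chromosome 2, 129299610 to 129309972), had no such range. It was at 19.0 and 14.9 CPM in baseline CTL skin and at 13.02 and 21.3 CPM in lesional CTL skin, and these groups overlapped. Its log2 fold change with HDM in CTL mice was 0.02, with a 95% interval from -1.19 to 1.23. In butyrate-treated mice it was at 16.7 and 7.43 CPM in baseline skin and at 34.5 and 17.4 CPM in lesional skin. Lesional butyrate replicate 3 was the highest of the 8 mice, and without it the log2 fold change against lesional CTL skin was 0.02 in place of 0.60 (standard error 0.50, FDR 1.00 by edgeR). Per kb of exon, the ratio of Il1b to Il1a was 10.5 and 6.63 in the lesional CTL mice and 0.597 and 1.51 in the lesional butyrate mice, and between 0.177 and 0.286 in the 4 baseline mice.

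**Figure D2:**
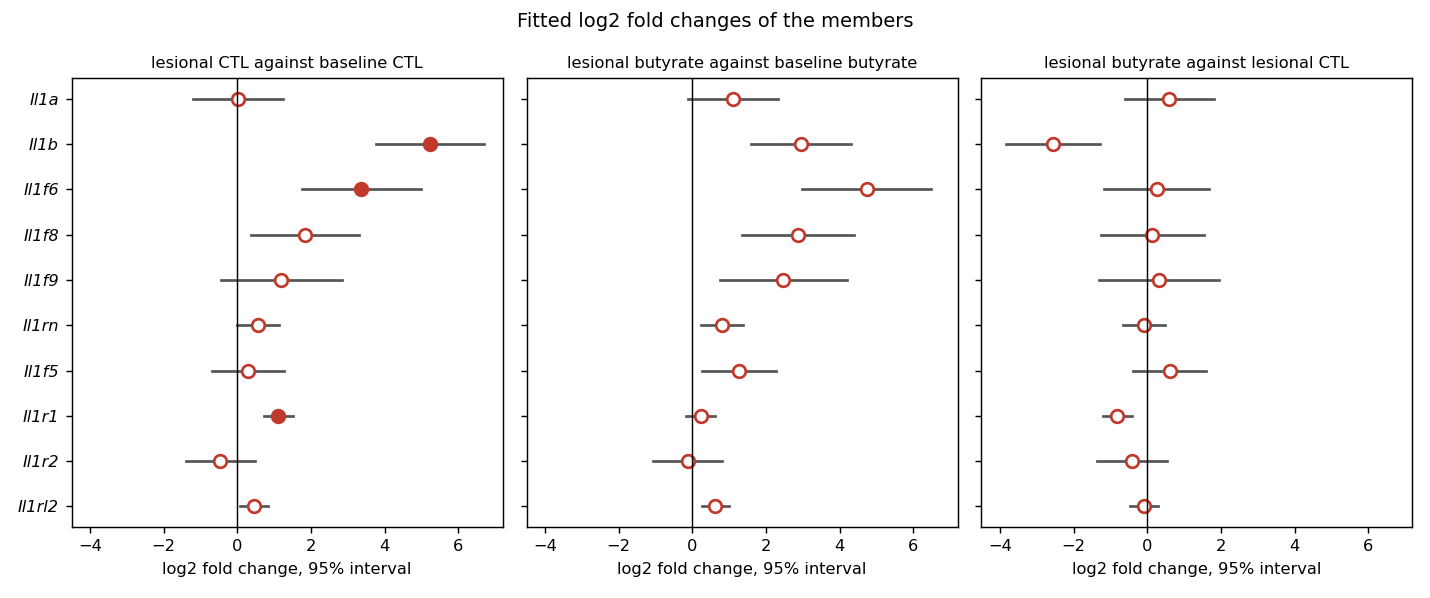
Fitted log2 fold changes (points) with 95% intervals (lines) of the 10 members in 3 comparisons, 2 mice per group; filled points passed an FDR of 0.1 and a fold-change of 2 by edgeR. Il1b stands at 5.23 for HDM in CTL mice and at -2.56 for butyrate in lesional skin, and the intervals of Il1f6, Il1f8 and Il1f9 span 0 in the latter.

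The IL-36 agonists were higher in lesional than in baseline skin with either drink, and in lesional skin the groups overlapped. Il1f6, the IL-36 alpha gene (ENSMUSG00000026984, chromosome 2, 24215418 to 24225702), was at 4.28 and 2.94 CPM in baseline CTL skin and at 39.3 and 35.1 CPM in lesional CTL skin. It rose 10.3-fold (log2 fold change 3.36, standard error 0.67, FDR 0.0710 by edgeR). In butyrate-treated mice it was at 2.65 and 0.715 CPM in baseline skin and at 63.3 and 25.4 CPM in lesional skin. The lowest lesional mouse was still above every baseline mouse. HDM in these mice gave a log2 fold change of 4.74 (standard error 0.72, FDR 0.111), or 4.06 (FDR 0.0441) without baseline butyrate replicate 3.

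Il1f8, the IL-36 beta gene (ENSMUSG00000026985, chromosome 2, 24153161 to 24160519), was at 18.7 and 18.2 CPM in baseline CTL skin and at 74.0 and 58.4 CPM in lesional CTL skin. With butyrate it was at 15.6 and 4.43 CPM in baseline skin and at 98.3 and 47.4 CPM in lesional skin. The lesional mice were above the baseline mice in each arm. Its log2 fold change with HDM was 1.84 in CTL mice (standard error 0.60, FDR 0.182 by edgeR) and 2.87 in butyrate-treated mice (standard error 0.63, FDR 0.193). Without baseline butyrate replicate 3 these were 1.84 (FDR 0.0154) and 2.22 (FDR 0.0604).

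Il1f9, the IL-36 gamma gene (ENSMUSG00000044103, chromosome 2, 24186476 to 24193568), was the most abundant IL-36 agonist per kb in 8 of 8 mice. It was at 55.7 and 42.6 CPM in baseline CTL skin and at 115 and 110 CPM in lesional CTL skin. With butyrate it was at 42.2 and 8.81 CPM in baseline skin and at 185 and 97.3 CPM in lesional skin. Baseline butyrate replicate 3 was 4.79-fold below its pair, the widest gap of any member in any pair. Its log2 fold change with HDM was 1.19 in CTL mice (standard error 0.68, FDR 0.369 by edgeR) and 2.47 in butyrate-treated mice (standard error 0.71, FDR 0.277), or 1.20 (FDR 0.0354) and 1.75 (FDR 0.0679) without that mouse.

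Between lesional butyrate and lesional CTL skin the 3 agonists had log2 fold changes of 0.25 (95% interval -1.18 to 1.69) for Il1f6, 0.14 (-1.26 to 1.54) for Il1f8 and 0.33 (-1.30 to 1.95) for Il1f9. These intervals hold no change as well as a change of more than 2-fold in either direction. In all 3 the lesional CTL values lay between the butyrate replicate 3 mouse, the highest, and replicate 4, the lowest. Without lesional butyrate replicate 3 the values were -0.55, -0.48 and -0.21. Per kb, the ratio of Il1f6 to Il1f9 was 0.638 and 0.595 in lesional CTL mice and 0.638 and 0.486 in lesional butyrate mice, against 0.117 to 0.151 in the 4 baseline mice. For Il1f8 to Il1f9 the ratio lay between 0.455 and 0.871 in all 8 mice.

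The antagonists were present in every mouse at levels above 50 CPM. Il1rn, the IL-1 receptor antagonist (ENSMUSG00000026981, chromosome 2, 24336853 to 24351494), was at 108 and 84.8 CPM in baseline CTL skin, 86.8 and 65.4 CPM in baseline butyrate skin, 148 and 137 CPM in lesional CTL skin and 156 and 110 CPM in lesional butyrate skin. Both lesional groups lay above their baseline groups, and the lesional groups overlapped. The log2 fold change was 0.56 with HDM in CTL mice (standard error 0.24, FDR 0.258 by edgeR), 0.81 in butyrate-treated mice (standard error 0.24, FDR 0.279, or 0.62 without baseline butyrate replicate 3) and -0.10 between lesional butyrate and lesional CTL skin (95% interval -0.66 to 0.47).

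Il1f5, the IL-36 receptor antagonist (ENSMUSG00000026983, chromosome 2, 24276954 to 24283426), was at 121 and 106 CPM in baseline CTL skin and at 151 and 126 CPM in lesional CTL skin. With butyrate it was at 119 and 56.4 CPM in baseline skin and at 272 and 153 CPM in lesional skin. It was the only member whose lesional butyrate mice were both above the lesional CTL mice, replicate 4 only just. Between these groups the log2 fold change was 0.61 (95% interval -0.37 to 1.603, FDR 1.00 by edgeR), and 0.14 without lesional butyrate replicate 3. With HDM it was 0.29 in CTL mice and 1.27 in butyrate-treated mice (standard error 0.41, FDR 0.302), where DESeq2 gave an FDR of 0.0622 and where it was 0.84 without baseline butyrate replicate 3.

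**Figure D3:**
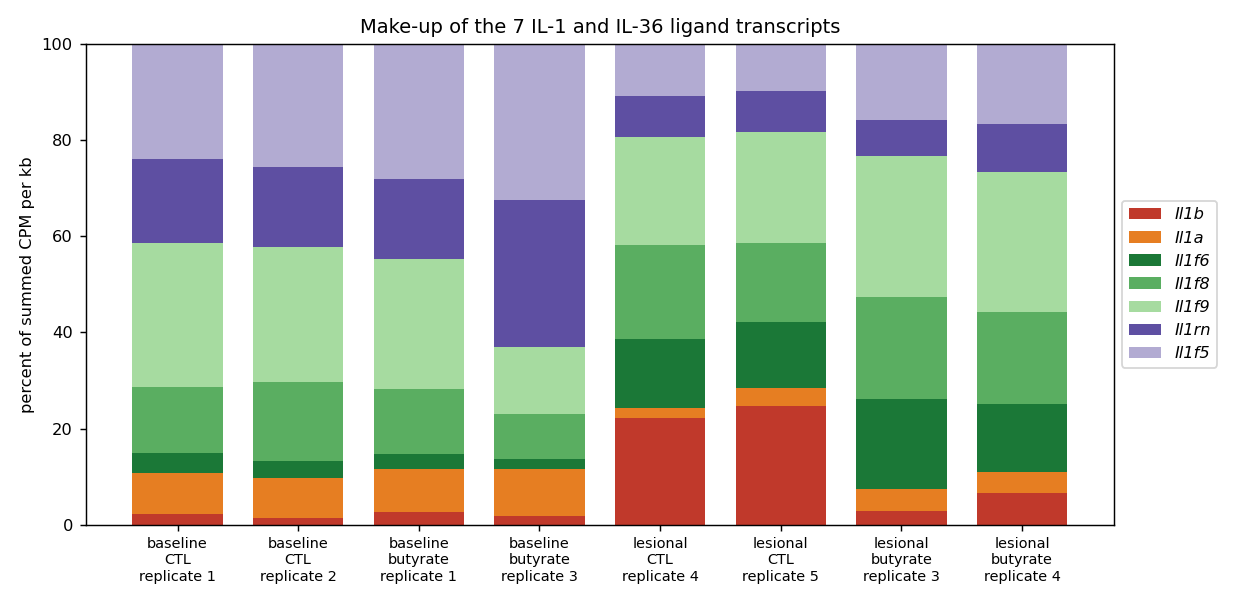
Make-up of the 7 ligand and antagonist transcripts in each mouse, as percent of their summed CPM per kb of exon; bars are single mice. Il1b takes 22.2% and 24.7% in the lesional CTL mice and 2.74% and 6.59% in the lesional butyrate mice.

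Divided by exon length, the 7 ligand genes summed to 113 and 91.9 CPM per kb in baseline CTL skin and to 311 and 289 CPM per kb in lesional CTL skin. They summed to 94.5 and 38.6 CPM per kb in baseline butyrate skin and to 381 and 203 CPM per kb in lesional butyrate skin, on either side of the lesional CTL mice. The lesional groups differed in the make-up of this sum. Il1b took 22.2% and 24.7% of it in the lesional CTL mice. In the lesional butyrate mice it took 2.74% and 6.59%, above the 1.46% to 2.56% of the baseline mice. Il1f9 took 22.4% and 23.1% against 29.4% and 29.1%, and Il1f5 took 10.8% and 9.69% against 15.9% and 16.7%. These shares add up to a fixed total, so a lower share of Il1b goes with higher shares of the others, and they were not tested.

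Set against its antagonist, Il1b was at 2.58 and 2.89 times the level of Il1rn per kb in lesional CTL mice and at 0.370 and 0.670 times in lesional butyrate mice. In the 4 baseline mice this ratio lay between 0.0592 and 0.155. The lesional CTL mice were thus the only mice with more Il1b than Il1rn transcript per kb. This rests on the division by exon length, 1907 bp for Il1b and 5535 bp for Il1rn. In CPM, Il1rn was above Il1b in the lesional CTL mice too, at 148 and 137 against 132 and 136 CPM. The summed IL-36 agonists were at 5.20 and 5.51 times the level of Il1f5 in lesional CTL mice and at 4.37 and 3.73 times in lesional butyrate mice, where the groups did not overlap but lay close. In baseline skin that ratio was 2.00 and 1.88 in CTL mice and 1.56 and 0.780 in butyrate-treated mice. Its level rests on exon length too, 4493 bp for Il1f5 against 883, 1217 and 1648 bp for Il1f6, Il1f8 and Il1f9. In CPM, each agonist alone was below Il1f5 in every mouse. Il1b and Il1f9 were level in lesional CTL skin, with ratios of 0.991 and 1.07, and in lesional butyrate skin the ratio was 0.0929 and 0.226.

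**Figure D4:**
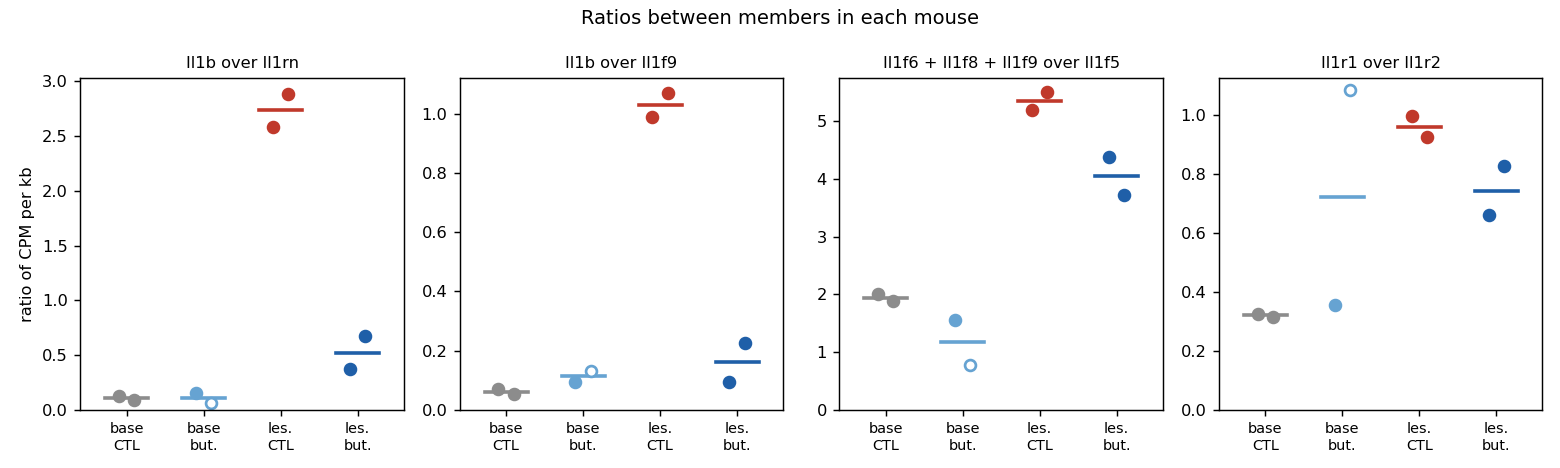
Ratios of levels per kb of exon between members in each mouse, with 2 mice per group as points, the mean as a bar and baseline butyrate replicate 3 open. The ratio of Il1b to Il1rn is 2.58 and 2.89 in lesional CTL mice and at most 0.670 in the other 6, and the ratio of summed IL-36 agonists to Il1f5 is at least 3.73 in all 4 lesional mice.

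Of the receptors, Il1r1 rose with HDM in CTL mice. This gene for the signalling IL-1 receptor (ENSMUSG00000026072, chromosome 1, 40225080 to 40317257) was at 71.3 and 66.05 CPM in baseline CTL skin and at 141 and 156 CPM in lesional CTL skin, a 2.16-fold rise (log2 fold change 1.11, standard error 0.16, FDR 0.0374 by edgeR). With butyrate it was at 63.4 and 81.9 CPM in baseline skin and at 88.1 and 81.7 CPM in lesional skin, and these groups overlapped. HDM in butyrate-treated mice gave a log2 fold change of 0.22 (95% interval -0.16 to 0.61), or 0.42 without baseline butyrate replicate 3. Lesional butyrate skin was 1.75-fold below lesional CTL skin (log2 fold change -0.81, standard error 0.16, 95% interval -1.19 to -0.42, edgeR FDR 0.737). That is under the 2-fold limit whatever its FDR, which was 0.0145 by DESeq2, 0.419 by limma-voom and 0.140 by edgeR with only the lesional mice. Without baseline butyrate replicate 3 the log2 fold change was -0.81 as well. The butyrate effects in lesional and baseline skin differed by -0.89 (standard error 0.23, unadjusted p = 0.00675 and FDR 0.840 by edgeR), or by -0.69 (FDR 0.441) without baseline butyrate replicate 3.

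Il1r2, the decoy receptor (ENSMUSG00000026073, chromosome 1, 40074079 to 40125231), was the only member below its baseline level in lesional CTL skin. It was at 65.7 and 62.7 CPM in baseline CTL skin, 53.3 and 22.6 CPM in baseline butyrate skin, 42.5 and 50.5 CPM in lesional CTL skin and 40.0 and 29.6 CPM in lesional butyrate skin. The 2 baseline CTL mice were the highest of the 8. The log2 fold change with HDM in CTL mice was -0.47 (95% interval -1.40 to 0.47), and butyrate against CTL gave -0.42 in lesional skin (95% interval -1.36 to 0.52) and -0.76 in baseline skin (95% interval -1.70 to 0.18), where it was -0.27 without baseline butyrate replicate 3. Per kb, Il1r1 was at 0.316 to 0.357 times the level of Il1r2 in 3 of the 4 baseline mice and at 1.09 times in baseline butyrate replicate 3. In lesional skin that ratio was 0.998 and 0.924 in CTL mice and 0.659 and 0.827 in butyrate-treated mice. Its level rests on the division by exon length, 6363 bp for Il1r1 and 1908 bp for Il1r2. In CPM, Il1r1 was above Il1r2 in every mouse.

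Il1rl2, the IL-36 receptor (ENSMUSG00000070942, chromosome 1, 40324610 to 40367562), varied least over the 8 mice. It was at 55.5 and 47.7 CPM in baseline CTL skin, 47.8 and 38.3 CPM in baseline butyrate skin, 70.9 and 70.3 CPM in lesional CTL skin and 68.9 and 64.1 CPM in lesional butyrate skin. All lesional mice were above all baseline mice. The log2 fold change with HDM was 0.45 in CTL mice (standard error 0.16, FDR 0.194 by edgeR) and 0.63 in butyrate-treated mice (standard error 0.16, FDR 0.230, or 0.48 without baseline butyrate replicate 3), and butyrate against CTL in lesional skin gave -0.09 (95% interval -0.46 to 0.29). The 3 receptor genes each overlap 1 other annotated gene on the same strand, while the ligand genes overlap none. The shared co-receptor Il1rap was at 39.1 and 32.5 CPM in baseline CTL skin, 36.2 and 34.2 CPM in baseline butyrate skin, 70.4 and 57.3 CPM in lesional CTL skin and 49.7 and 39.0 CPM in lesional butyrate skin. Its log2 fold changes were 0.83 with HDM in CTL mice (FDR 0.0904 by edgeR, under the 2-fold limit) and -0.53 for butyrate in lesional skin (FDR 0.949).

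The other ligands and inhibitors of the family were 4 genes, all tested. None was called between lesional butyrate and lesional CTL skin, and 1, Il33, was called with HDM in CTL mice. Over all genes 0% were called in the former comparison and 2.37% were called as higher in the latter. The same shares apply to the lists that follow. Il33, an alarmin of barrier cells, was at 31.9 and 39.2 CPM in baseline CTL skin, 170 and 167 CPM in lesional CTL skin and 86.0 and 75.5 CPM in lesional butyrate skin. Its log2 fold change was 2.25 with HDM in CTL mice (standard error 0.50, FDR 0.0905 by edgeR) and -1.06 for butyrate in lesional skin (standard error 0.49, FDR 1.00). Il18, a family cytokine that also needs cleavage, ran the other way: it was at 27.6 and 26.0 CPM in lesional CTL skin and at 58.7 and 35.3 CPM in lesional butyrate skin (log2 fold change 0.81, FDR 1.00). Il18bp, which binds and blocks IL-18, was at 8.91 and 8.95 CPM against 5.63 and 6.84 CPM.

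Of 7 other receptors of the family, 5 were tested, none was called for butyrate in lesional skin, and Il1rl1 and Il18rap were called as higher with HDM in CTL mice. Il1rl1, the receptor for IL-33, was at 6.45 and 7.83 CPM in baseline CTL skin, 55.7 and 57.0 CPM in lesional CTL skin and 20.6 and 20.2 CPM in lesional butyrate skin (log2 fold change 2.98 with HDM, FDR 0.0322, and -1.47 for butyrate, FDR 0.737, both by edgeR). Il18rap, the co-receptor for IL-18, was at 4.06 and 3.94, then 30.1 and 23.0, then 9.55 and 8.37 CPM in the same groups (log2 fold change 2.73, FDR 0.0738, and -1.56, FDR 0.933).

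All 22 listed genes of signalling behind the receptors were tested, 1 was called with HDM in CTL mice and none for butyrate in lesional skin, where the median log2 fold change was -0.09. The gene called was Zc3h12a, an RNase that degrades cytokine transcripts and is named here after its values were seen (log2 fold change 1.99, FDR 0.0522 by edgeR). Between lesional butyrate and lesional CTL skin the adaptor Myd88 had a log2 fold change of -0.30, the kinase Irak4 -0.34, the IL-36-responsive regulator Nfkbiz -0.43, the ubiquitin ligase Traf6 0.23 and its partner Tab2 0.14. They were named because their groups did not overlap, as was so for 2 of the 22 as higher and 6 as lower. Over all genes 22.4% were higher and 22.5% lower in this way, so the overlap does not set these genes apart. Of 16 genes of processing and release, 15 were tested, and Nlrp3 and Capn2 were called as higher with HDM in CTL mice. Nlrp3, the sensor of the inflammasome that leads to IL-1 beta cleavage, was at 13.1 and 17.2 CPM in lesional CTL skin and at 2.29 and 3.16 CPM in lesional butyrate skin (log2 fold change -2.47, standard error 0.62, FDR 0.737). The protease Capn2, a calpain of the kind that cleaves IL-1 alpha, was at 350 and 320 against 234 and 254 CPM (-0.46, FDR 0.951), and the pore former Gsdmd was at 26.7 and 29.0 against 17.2 and 22.2 CPM (-0.50, FDR 1.00).

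Of 22 genes known to be induced by IL-1 or IL-36, 20 were tested. With HDM 15 were called as higher in CTL mice, where 2.37% of all genes were, and 3 in butyrate-treated mice, where 0.277% were. None was called for butyrate in lesional skin, where 0% of all genes were. There 17 of 20 were lower with butyrate, all 17 with groups that did not overlap, as was so for 22.5% of all genes. The median log2 fold change was -1.51 against -0.01 over all genes. With HDM the median was 3.71 in CTL mice and 2.15 in butyrate-treated mice, or 3.71 and 1.84 with the genes that were at 0 in a baseline group set to the bound that 3 counts allow. Cxcl5, a neutrophil chemokine, was at 62.1 and 67.4 CPM in lesional CTL skin and at 5.15 and 5.49 CPM in lesional butyrate skin (log2 fold change -3.60, standard error 0.31, FDR 0.289 by edgeR). Cxcl2 was at 18.8 and 31.8 against 1.57 and 0.930 CPM (-4.33, FDR 0.737), and Cxcl3 at 4.00 and 7.75 against 0.668 and 0.233 CPM (-3.69, FDR 0.737). The lists were drawn with results of the same libraries known, so these directions are no independent evidence.

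Between lesional butyrate and lesional CTL skin some marker lists were lower, some higher, and others differed little. Fibroblast markers had a median log2 fold change of 0.09, basal keratinocyte markers 0.13 and T cell markers -0.42. No fibroblast or T cell marker had groups that did not overlap. Neutrophil markers, 10 genes, summed to 208 and 270 CPM in lesional CTL skin, 65.2 and 81.6 CPM in lesional butyrate skin and 5.38 to 16.3 CPM in baseline skin. All 7 of them that were tested were lower in lesional butyrate than in lesional CTL skin, with a median log2 fold change of -2.71. For Mpo it was -0.04 and the groups overlapped. Ly6g and Ngp, not tested, were at 0 in both lesional butyrate mice and in both baseline CTL mice. In lesional CTL skin they were near the floor of 3 counts, at 0.107 and 0.231 CPM for Ly6g and 0.267 and 0.461 CPM for Ngp. Camp, also not tested, was at 0.214 and 0.277 CPM in lesional CTL and 0 and 0.419 CPM in lesional butyrate skin. Monocyte and macrophage markers, 11 genes with none at 0 in any group, summed to 1551 and 1804 CPM in lesional CTL skin, 854 and 1545 CPM in lesional butyrate skin and 403 to 1612 CPM in baseline skin. All 11 were lower, with a median of -0.55. Markers of injury-induced keratinocytes, 5 genes, summed to 9007 and 5995 CPM in lesional CTL skin and 5222 and 3759 CPM in lesional butyrate skin, and those of suprabasal keratinocytes, 7 genes, to 4595 and 5479 CPM against 13014 and 10113 CPM. In whole skin, fewer cells of a type and less RNA per cell cannot be told apart, and the part of these markers in the result for Il1b was not tested.

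**Figure D5:**
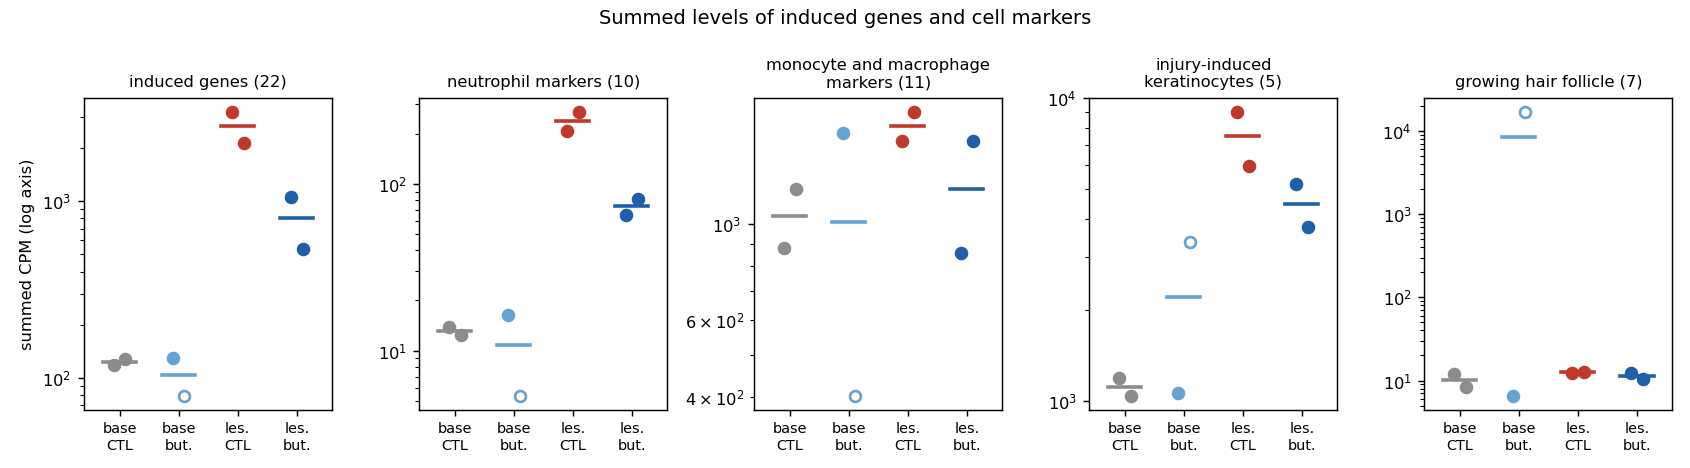
Summed CPM (log axis) per mouse of 22 genes induced by IL-1 or IL-36 and of 4 marker lists, with the number of genes in brackets, 2 mice per group as points, the mean as a bar and baseline butyrate replicate 3 open. Neutrophil markers sum to 208 and 270 CPM in lesional CTL mice and to 65.2 and 81.6 CPM in lesional butyrate mice, and growing hair follicle markers to 16849 CPM in baseline butyrate replicate 3 alone.

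The 5 genes most like each of Il1b, Il1rn and Il1f9 across the 8 mice were not the same, although these members were themselves correlated. By Pearson's r of log2 CPM, as a description of mice that share their groups and libraries, the genes most like Il1b were Cyp4f18, Ifitm1, Clec4d, Il6 and Il1rl1, with r from 0.989 to 0.993. Clec4d, a C-type lectin of myeloid cells, was at 25.2 and 34.6 CPM in lesional CTL skin and at 5.15 and 5.44 CPM in lesional butyrate skin, and the cytokine Il6 at 11.3 and 16.1 against 2.62 and 1.91 CPM. The genes most like Il1rn were Slc6a20a, Cxcl16, Ly6d, Gcnt2 and Atp8a1, with r from 0.977 to 0.993. Those most like Il1f9 were Serpinb2, Sh3bgrl3, Aadac, Skint1 and Fcgbp, with r from 0.988 to 0.992. Serpinb2, a serine protease inhibitor, was at 313 and 332 CPM in lesional CTL skin and at 429 and 246 CPM in lesional butyrate skin, the overlap seen for Il1f9 itself. Among the members, r was 0.984 between Il1f6 and Il1f8, 0.972 between Il1rn and Il1rl2, 0.409 between Il1a and Il1b and 0.0514 between Il1b and Il1r2. It was 0.915 between Il1b and Il1rl2, 0.887 between Il1b and Il1f6, 0.859 between Il1b and Il1rn and 0.945 between Il1rn and Il1f9. The unlike lists thus do not set these members apart.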

How the data were processed

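Whole skin RNA of 8 mice was sequenced, and per the labels and the study's methods the authors aligned the reads with STAR 2.5.2 to GRCm38 and counted them per gene with featureCounts. The deposited values are raw counts of 22740 protein-coding genes without normalization. Library totals were 18004136 to 21085544, so 3 counts, taken as the floor, correspond to 0.138 to 0.169 CPM. These limits cover counting error only. CPM values use TMM-scaled totals, and values per kb were divided by the merged exon length of GENCODE vM21.

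Groups follow the labels, where SCFA is the sodium butyrate of the treatment protocol. Genes were tested with edgeR 4.0.16 (R 4.3.3, glmQLFit with robust estimation, glmQLFTest) on all 8 mice with 1 mean per group and no block. Genes passed filterByExpr at a minimum count of 10, fold changes used a prior count of 0.125, and calls needed a Benjamini-Hochberg FDR below 0.1 over 15163 genes and a fold-change above 2. Standard errors were derived from the F statistic. As alternatives served DESeq2 1.42.0 without independent filtering, limma-voom (limma 3.58.1), RLE size factors, no filter, a prior count of 2, only the mice compared, and each mouse left out. Replicates are mice numbered in the labels. The p-values set a difference between groups against the spread between mice, estimated for each gene over all 4 groups together. A comparison thus also uses the spread of mice outside it, the baseline butyrate pair included.

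The members and lists were chosen with earlier results of these data known. Named were all members, and from each pathway list up to 2 of the highest and 3 of the lowest genes by log2 fold change in lesional skin with a mean of at least 1 CPM and groups that did not overlap, with Il1rap, and the 5 genes most like Il1b, Il1rn and Il1f9.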

Additional observations from a re-analysis of the deposited data

How the results depend on the processing

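No paired analysis was possible because no 2 groups have more than 1 replicate number in common. With 2 mice per group, the spread is known from few values, and counts of calls moved with the mice and the tool. For lesional butyrate against lesional CTL skin 0 members were called, 1 with DESeq2, 1 with only the mice compared, and 0 to 1 when a mouse was left out. For lesional against baseline skin in CTL mice 3 were called, 5 with only the mice compared and 0 to 5 when a mouse was left out. In butyrate-treated mice 0 were called, 5 with DESeq2 and 0 to 7 when a mouse was left out. For butyrate in baseline skin this range was 0 to 6 and for the difference between the butyrate effects 0 to 7, the highest count in both coming without baseline butyrate replicate 1. Calls over all genes moved in the same fits. For HDM in CTL mice, 1918 of 14863 genes were called with only the mice compared, against 543 of 15163 with all 8 mice. Without baseline butyrate replicate 1, the hair follicle mouse alone stood for its group. Calls over all genes then rose too, for butyrate in baseline skin and for the difference between the butyrate effects. The cause of these changes in calls was not tested.

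Of the log2 fold changes of single members under all alternatives, 617 kept direction and call, 40 gained a call, 16 lost it and 17 turned sign. When a mouse was left out, the value in lesional skin lay between -0.55 and 0.77 for Il1f6, -0.48 and 0.57 for Il1f8, -0.21 and 0.72 for Il1f9, and -0.37 and 0.13 for Il1rn. In baseline skin it lay between -1.41 and 0.38 for Il1b, -0.12 and 0.25 for Il1r1, and -1.01 and 0.068 for Il1f5. With HDM in CTL mice Il1a lay between -0.38 and 0.33, and limma-voom gave -0.00043. With HDM in butyrate-treated mice Il1r2 lay between -0.61 and 0.63, and limma-voom gave 0.0097. The difference between the butyrate effects lay between -0.15 and 1.09 for Il1r2 and -0.023 and 0.48 for Il1rn. The lowest values of Il1b and Il1f5 in baseline skin came without baseline butyrate replicate 1. So did the highest value of Il1r2 for the difference between the butyrate effects.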

Other observations

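Il1f10, the IL-38 gene of the same family, had a pattern shared by no member. It was at 6.78 and 6.27 CPM in baseline CTL skin, 6.14 and 26.7 CPM in baseline butyrate skin, 0.480 and 1.48 CPM in lesional CTL skin and 3.58 and 2.37 CPM in lesional butyrate skin. The highest value was that of baseline butyrate replicate 3, the mouse with growing hair follicle markers, in which 9 of the 10 members had their lowest level among the 4 baseline mice. The log2 fold change of Il1f10 was -2.71 with HDM in CTL mice (standard error 0.82, FDR 0.160 by edgeR's quasi-likelihood test) and 1.58 for butyrate in lesional skin (standard error 0.81, FDR 1.00), and in both comparisons the groups did not overlap.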
